A study of Mus musculus with 6 samples.

Results

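The cytosolic ribosomal protein genes were described here in RNA from the mononuclear cells of mouse skeletal muscle. They were the rows whose symbol is Rpl or Rps followed by a digit, together with Rplp0, Rplp1, Rplp2 and Rpsa. The S6 kinases, Rps19bp1, Rpl7l1 and rows with -ps in their names were left out. This gave 85 genes of the 17030 in the table, lying on 19 chromosomes. By symbol alone, 51 were counted to the large subunit and 34 to the small subunit. Of these, 77 encode the usual proteins of the ribosome, and 8 are paralogues or copies of such a gene (Rpl3l, Rpl22l1, Rpl36al, Rps27l, Rps4l, Rpl32l, Rpl37rt and Rps23rg1). The GENCODE annotation types Rpl37rt, Rpl32l and Rps4l as processed pseudogenes. The choice used names and no measured value.

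The 6 libraries came from male C57BL/B6 mice that carried LLC (Lewis lung carcinoma) tumours, a transplanted tumour used to study muscle wasting in cancer. All of the mice had the floxed IKKb alleles (IKKbfl/fl), in which the gene for the kinase that activates canonical NF-kB can be cut out by Cre, and all received tamoxifen between days 10 and 14 after the tumour cells were given. In the mice of 3 libraries (Pax7 Cre ErT x IKKbfl/fl, called Pax7-CreERT below) a tamoxifen-activated Cre was driven by Pax7, the transcription factor of muscle satellite cells. The mice of the other 3 libraries (IKKbfl/fl, called controls) had no Cre. Age is not given in the sources used here, and no group carried Cre without floxed alleles, so what Cre itself does and what the deletion does cannot be told apart. The labels do not say whether each library is a separate animal, so p-values measure only the spread between these libraries.

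Ribosomal proteins assemble with ribosomal RNA into the 60S and 40S subunits, nearly all in a single copy per ribosome, and their mRNAs are made in step with each other. Most of these mRNAs begin with a run of pyrimidines, the 5′ terminal oligopyrimidine (TOP) motif, through which mTORC1 and LARP1 control their translation. The family has also seeded many intronless copies across mammalian genomes, and some paralogues, such as Rpl3l of striated muscle, replace the usual protein in particular tissues.

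Estimated depth ran from 4053000 to 13354000 assigned reads per library. Ikbkb, the floxed gene, measured 48.4 to 52.7 CPM (reads per 1000000 assigned reads) in the Pax7-CreERT libraries and 48.8 to 57.4 CPM in the controls, a log2 fold change of -0.04 (95% interval -0.33 to 0.24), and gene-level values do not isolate the floxed exons or the satellite cells. Satellite cell markers (10 of 10 in the table) summed to 610 to 694 CPM in the Pax7-CreERT libraries and 559 to 586 CPM in the controls, without overlap. The 12 endothelial markers summed to 9488 to 10352 and 9115 to 12981 CPM. The 11 pericyte and smooth muscle markers summed to 9806 to 12354 CPM in the Pax7-CreERT libraries and 7697 to 9755 CPM in the controls, without overlap. Leukocyte markers were present and uneven, with sums of 562 to 1418 CPM for macrophages, 80.1 to 152.7 CPM for neutrophils, 14.5 to 187.0 CPM for B cells and 5.68 to 23.9 CPM for T and NK cells. Among them Ly6g, Elane, Mpo, Cd3e, Klrb1c and Ncr1 stayed under 1 CPM in every library. Control replicate 3 stood apart, with 12.6% of its CPM from haemoglobin genes against 1.84% to 4.83% in the other 5 libraries. Pax7-CreERT replicate 1 was the highest library for fibro-adipogenic markers (7612 CPM, against 3579 to 5712 CPM elsewhere) and myofibre markers (3608 CPM, against 1247 to 2552 CPM). The myofibre sums did not overlap between the groups, at 2513 to 3608 CPM in the Pax7-CreERT libraries and 1247 to 2061 CPM in the controls. In bulk RNA, fewer cells of a type and less RNA per cell cannot be told apart.

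A pair of sequence features bears on what follows. The first is the likeness between members and their copies, shown by the first 90 coding bases of 4 members, each beside the same stretch of its copy or paralogue (GENCODE transcripts, GRCm38, in the order and strand of the parent's coding sequence). Capitals mark bases that differ within a pair. The Rpl37 transcript (chr15:5116645-5119140, plus strand) and that of Rpl37rt (chr5:115102923-115110268, minus strand) had 0 mismatches. Rpl32 (chr6:115805505-115808747, minus) and Rpl32l (chr10:20208490-20208888, plus) had 1. Rps4x (chrX:102184941-102189394, minus) and Rps4l (chr6:148354656-148355598, plus) had 15, and Rpl3 (chr15:80077791-80091868, minus) and Rpl3l (chr17:24727820-24736143, plus) had 21.
Rpl37: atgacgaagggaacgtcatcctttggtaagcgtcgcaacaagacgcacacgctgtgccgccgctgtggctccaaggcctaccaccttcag
Rpl37rt: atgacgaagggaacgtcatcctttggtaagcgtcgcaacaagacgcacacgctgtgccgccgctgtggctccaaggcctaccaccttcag
Rpl32: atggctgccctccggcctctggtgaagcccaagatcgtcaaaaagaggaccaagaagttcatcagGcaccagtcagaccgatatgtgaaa
Rpl32l: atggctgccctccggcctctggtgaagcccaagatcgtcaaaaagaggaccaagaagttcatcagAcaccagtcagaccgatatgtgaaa
Rps4x: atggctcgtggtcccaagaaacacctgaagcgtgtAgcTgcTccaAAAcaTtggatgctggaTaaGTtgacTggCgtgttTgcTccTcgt
Rps4l: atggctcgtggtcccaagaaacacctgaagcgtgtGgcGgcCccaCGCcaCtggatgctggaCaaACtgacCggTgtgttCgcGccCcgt
Rpl3: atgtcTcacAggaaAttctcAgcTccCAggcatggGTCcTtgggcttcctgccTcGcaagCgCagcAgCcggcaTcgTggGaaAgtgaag
Rpl3l: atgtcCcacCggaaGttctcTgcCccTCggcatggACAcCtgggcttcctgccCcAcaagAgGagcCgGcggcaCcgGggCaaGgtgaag

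The second feature is the pyrimidine run at the start of transcription. RefSeq starts (GRCm38.p6) were on hand for 64 of the 85 members, at 76 starts. A run of at least 8 bases made only of C or T, read on the gene's strand and reaching to within 5 bases of the start, was found at 34.2% of the members' starts and at 9.72% of all 32851 starts. For runs of at least 10 bases the shares were 26.3% and 5.1%, and for runs of at least 5 bases 50% and 32.9%. The 4 longest runs, of 21, 20, 20 and 18 bases, were those of Rpl7a (chr2:26910787-26910826, plus), Rpl27a (chr7:109519175-109519214, plus), Rpl34 (chr3:130730318-130730357, minus) and Rpl35 (chr2:39005112-39005151, minus). Each is shown from 20 bases before the annotated start, with the whole run in capitals. A match describes the letters around an annotated start and does not show that an mRNA begins there.
Rpl7a: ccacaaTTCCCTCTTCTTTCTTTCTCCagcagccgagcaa
Rpl27a: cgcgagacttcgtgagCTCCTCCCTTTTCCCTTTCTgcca
Rpl34: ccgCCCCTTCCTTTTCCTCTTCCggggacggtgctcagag
Rpl35: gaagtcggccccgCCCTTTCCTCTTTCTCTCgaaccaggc

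The ribosomal protein genes together held a small share of the CPM, with a range that overlapped between the groups. It was 0.649%, 0.576% and 0.665% of all CPM in the Pax7-CreERT libraries, taken in the order of their replicate numbers here and below, and 0.701%, 0.641% and 0.679% in those of the controls. The means were 0.630% ± 0.0477 and 0.674% ± 0.0305 (SD, n = 3 each). The difference of -0.0439 percentage points was smaller than the Pax7-CreERT SD and larger than the control SD. With TMM factors it was -0.0861 points, larger than both. Members weigh in these sums by their CPM. The means were 81.6 CPM in Pax7-CreERT and 206.7 CPM in the controls for Rpl29, and 421.8 and 515.4 CPM for Rpl41. All members together had 6298 and 6737 CPM. By log2 fold change, described below, 38 of the 83 members tested lay above 0. The share counts only reads assigned to these rows. How reads that also fit a copy were assigned is not given in the sources used here. What share of the RNA it stands for is therefore uncertain. Large subunit genes held 1.82 to 1.92 times the CPM of small subunit genes in the Pax7-CreERT libraries and 1.90 to 2.01 times in the controls. Both sums include copies, such as Rpl37rt (mean 356 CPM) and Rpl32l (203 CPM) on the large side.

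Levels differed widely between members, although their proteins are needed in nearly equal numbers. Over the 6 libraries the mean level was 100 CPM or more for 18 members, 10 to 100 CPM for 47 and under 10 CPM for 20, and 17 of those 20 encode usual ribosomal proteins. Levels per kb of transcript, which adjust for the length of the chosen transcript, had a median of 38.7 CPM per kb. The 5 highest were Rpl41 (1072 CPM per kb), which encodes the smallest ribosomal protein, the copy Rpl37rt (872), the stalk protein gene Rplp1 (766), the copy Rpl32l (509) and Rps3a1 (336), which encodes a small subunit protein. The 5 lowest were the muscle paralogue Rpl3l (0.824 CPM per kb), the small subunit genes Rps29 (0.827) and Rps12 (1.51), Rpl9 of the large subunit (2.74), and Rps27a (3.03), which encodes a ribosomal protein fused to ubiquitin. These orders rest on 1 chosen transcript per gene, and the choice can matter. Rps20 stood at 20.1 CPM per kb of transcript and at 209 per kb of coding sequence.

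**Figure D1:**
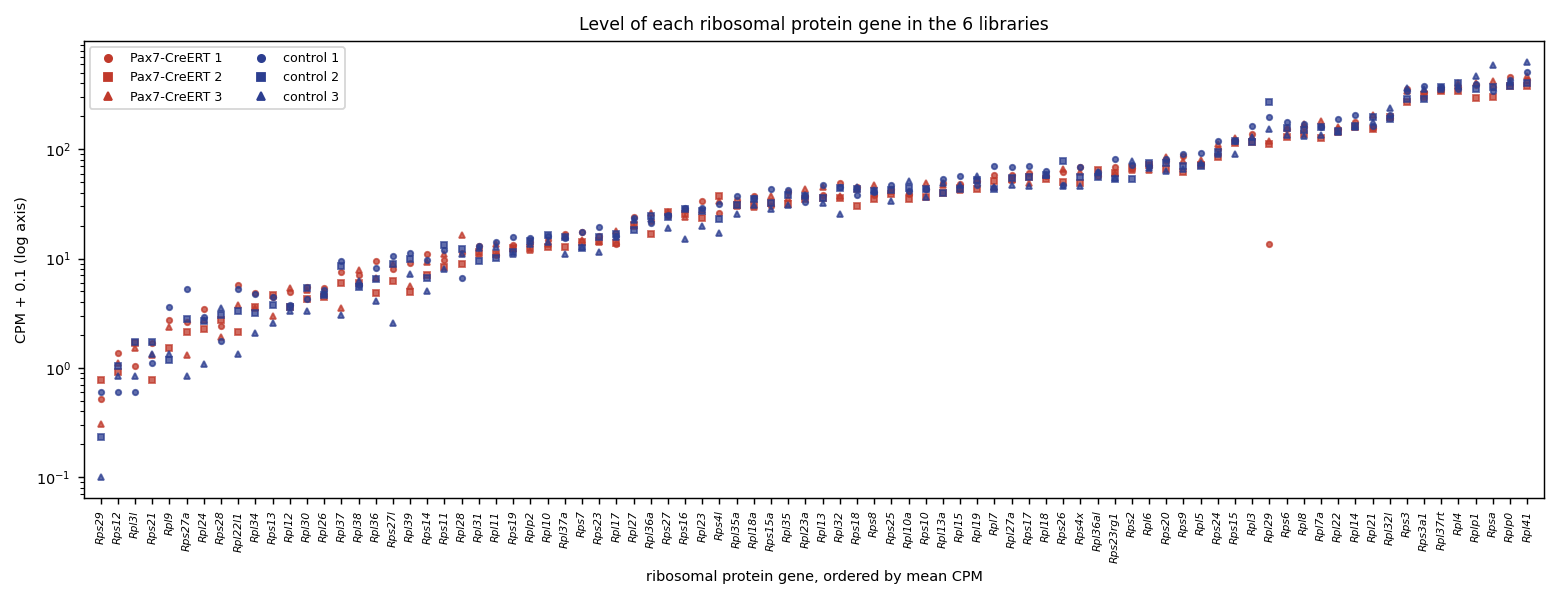
Level of 84 of the 85 ribosomal protein genes in CPM plus 0.1 on a log axis, ordered by mean, with 1 point per library (red for Pax7-CreERT, blue for control). The means run from 0.322 CPM for Rps29 to 468.6 CPM for Rpl41, and the points of most genes lie close together, apart from Rpl29, where Pax7-CreERT replicate 1 lies far below the rest.

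Rps29 and Rps12 were the 2 members that did not reach 1 CPM in 3 libraries and were not tested. Rps29 measured 0.420, 0.674 and 0.203 CPM in the Pax7-CreERT libraries and 0.501, 0.135 and 0 CPM in the controls, where 0 in control replicate 3 allows up to 3 of its estimated 4053000 reads. Rps12 measured 1.26, 0.824 and 1.02 CPM in the Pax7-CreERT libraries and 0.501, 0.943 and 0.740 CPM in the controls. By the reads assigned to them, both genes were near the limit of detection in every library. Just inside the filter were Rpl3l, with a mean of 1.13 CPM, and Rps21, a small subunit gene, with 1.22 CPM.

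The highest member, Rpl41, measured 426.1, 375.6 and 463.9 CPM in the Pax7-CreERT libraries and 504.5, 406.6 and 635.2 CPM in the controls. Rps3a1 measured 332.0, 311.0 and 299.6 CPM against 382.8, 286.1 and 355.5 CPM. In both genes the groups overlap, and control replicate 2 lies among the Pax7-CreERT libraries or below them. Rpl9 measured 2.63, 1.42 and 2.24 CPM in the Pax7-CreERT libraries and 3.51, 1.08 and 1.23 CPM in the controls, so its highest and lowest values were both controls.

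Several copies stood above their parents. Rpl37 measured 7.36, 5.92 and 3.46 CPM in the Pax7-CreERT libraries and 9.36, 8.49 and 2.96 CPM in the controls, while Rpl37rt measured 358.2, 339.1 and 345.6 CPM and 370.1, 368.7 and 354.0 CPM. Per kb this was 7.49 CPM for Rpl37 and 872 for Rpl37rt. The copy hardly varied between libraries (highest to lowest 1.09 times), and the parent varied 3.16 times. Rpl32l, at 192.8, 196.9 and 199.5 CPM in the Pax7-CreERT libraries and 203.9, 189.1 and 236.1 CPM in the controls, stood at 509 CPM per kb against 76.1 for Rpl32. Rps23rg1 measured 53.2 to 82.1 CPM, or 38.9 CPM per kb against 16.1 for Rps23; its likeness to Rps23 is on the opposite strand of its transcript.

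Rows with -ps in their names, which are no members, mostly showed the same order. Rps6-ps4 was at 1313 CPM per kb against 172 for Rps6, Rpl14-ps1 at 606 against 170 for Rpl14, Rpl17-ps10 at 398 against 20.1 for Rpl17, Rpl31-ps12 at 72.4 against 11.1 for Rpl31, and Rps19-ps3 at 44.7 against 19.9 for Rps19. In these 5 pairs and in those of Rpl37rt, Rpl32l and Rps23rg1, the copy was higher in 6 of 6 libraries, per kb and in CPM alike. Rps4l, a member that is also typed as a processed pseudogene, went the other way. It stood at 35.5 CPM per kb against 59.9 for Rps4x, and had fewer CPM than Rps4x in every library. Rplp2-ps1 and Rps18-ps4, whose lengths were not on hand, had more CPM than Rplp2 and Rps18 in 6 of 6 libraries. Of the Rps15a copies, Rps15a-ps6 had more CPM than Rps15a in 4 of 6 libraries and Rps15a-ps4 in 0 of 6. The 9 such rows summed to 0.204% to 0.264% of CPM per library. A read from an identical stretch fits parent and copy alike, and how such reads were assigned is not given in the sources used here. The levels of parents and copies are therefore uncertain, and a shift of reads between them cannot be told from a difference in transcription.

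**Figure D2:**
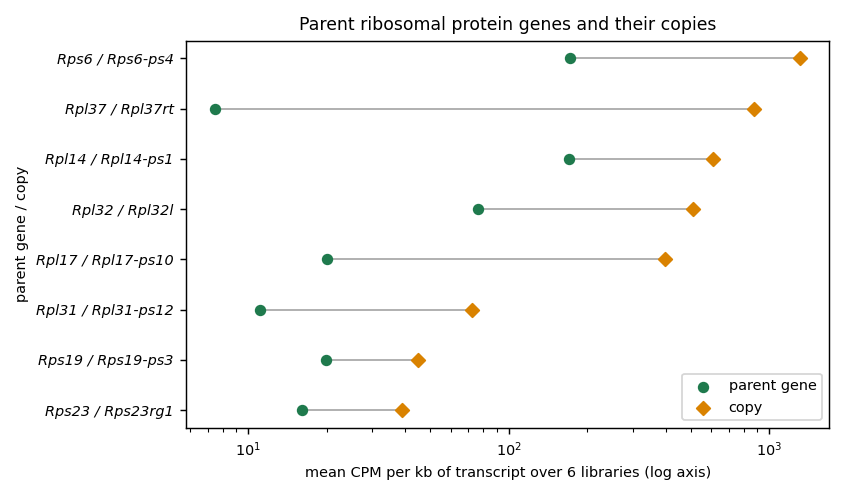
Mean level over 6 libraries in CPM per kb of transcript (log axis) of 8 parent genes (green circles) and their copies (orange diamonds), joined by a line. Every copy drawn lies to the right of its parent, from 38.9 against 16.1 for Rps23rg1 and Rps23 to 872 against 7.49 for Rpl37rt and Rpl37. Rps4l, which is lower than its parent Rps4x (35.5 against 59.9), is not drawn.

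Shared sequence was general in the family. Of the 85 members, 83 had at least 1 window of 50 bases in their chosen transcript that also occurs in a GENCODE transcript of another locus, on either strand. The median share of such windows was 49.0%, and 41 members were above 50%. Rpl3l had none, and Rps27 (98.6%), Rpl9 (93.3%) and Rpl10 (92.1%) had the most. Across the 85 genes, which are not independent, the share and the level per kb had a Spearman correlation of 0.09, and of -0.15 with the coding length in place of the transcript length. Of the lowest members per kb named above, Rps12 had 83.6% of its windows shared, Rps27a 57.0% and Rps29 35.8%, beside the values given for Rpl9 and Rpl3l. Of the highest, Rpl37rt had 73.8%, Rps3a1 71.0%, Rplp1 60%, Rpl41 53.1% and Rpl32l 35.4%. The share also depends on the length of the chosen transcript, as for Rps20 with 3706 bases and 7.57%. The part of shared reads in these levels was not tested.

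**Figure D3:**
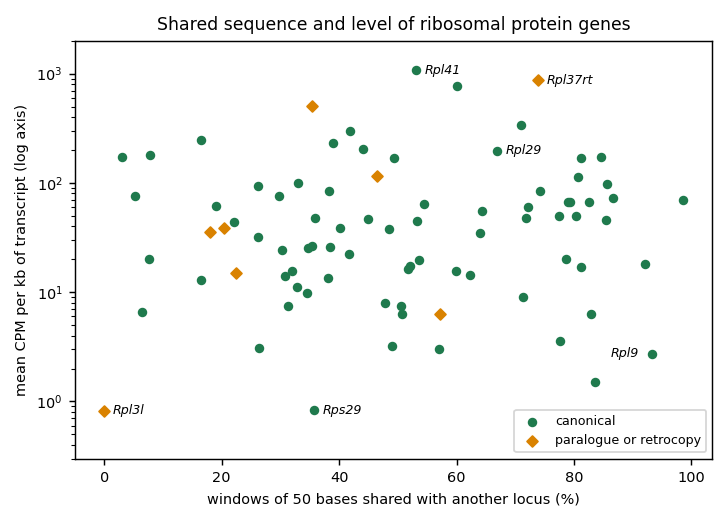
Share of 50-base windows that a member has in common with another locus (horizontal axis, %) and its mean level in CPM per kb of transcript (vertical log axis), with 1 point per gene, green for 76 of the 77 usual genes and orange for the 8 paralogues or copies. The points scatter widely, with Rpl41 at 53.1% and 1072 CPM per kb and Rpl9 at 93.3% and 2.74. Rps27, with the largest share at 98.6%, lies at 69.9 CPM per kb.

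Genotype was compared with limma on log2(CPM + 1), where a fold change is Pax7-CreERT minus control. The question is whether cutting IKKb in the Pax7 lineage of tumour-bearing mice went with a change in the ribosomal protein genes of the mixed cells. Of the 83 members tested, 0 passed at an adjusted p under 0.05, where 1 of 14763 genes passed (0.00677%). At an unadjusted p under 0.05 there was 1 member, Rpl29, against 5.52% of all genes. The groups did not overlap for 3 members that were lower in Pax7-CreERT (Rpl29, Rpl10a and Rpl18), where the share over all genes was 2.28%, and for 0 members that were higher, where it was 8.69%. The count of lower members is near its background share, and that of higher members is below it.

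The members' median log2 fold change was -0.02, being -0.03 for the large and -0.01 for the small subunit, and that of all genes was 0.09. Values above 0 were found for 38 of 83 members (45.8%) and for 68.0% of all genes. With TMM factors, which bring the median of all genes to 0.003, the members' median was -0.11, and 22 of 83 (26.5%) lay above 0, against 50.7% of all genes. The 95% interval lay within a 2-fold change of CPM + 1, either way, for 77 of 83 members, and the median SE was 0.17. For members of few CPM the added constant shrinks fold changes, so a 2-fold change in CPM can lie inside such an interval. Changes above 2-fold in CPM were thus outside the interval for most members of at least 10 CPM. Some intervals were narrower, such as -0.29 to 0.32 for Rplp0, and changes that lie inside an interval were not resolved.

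**Figure D4:**
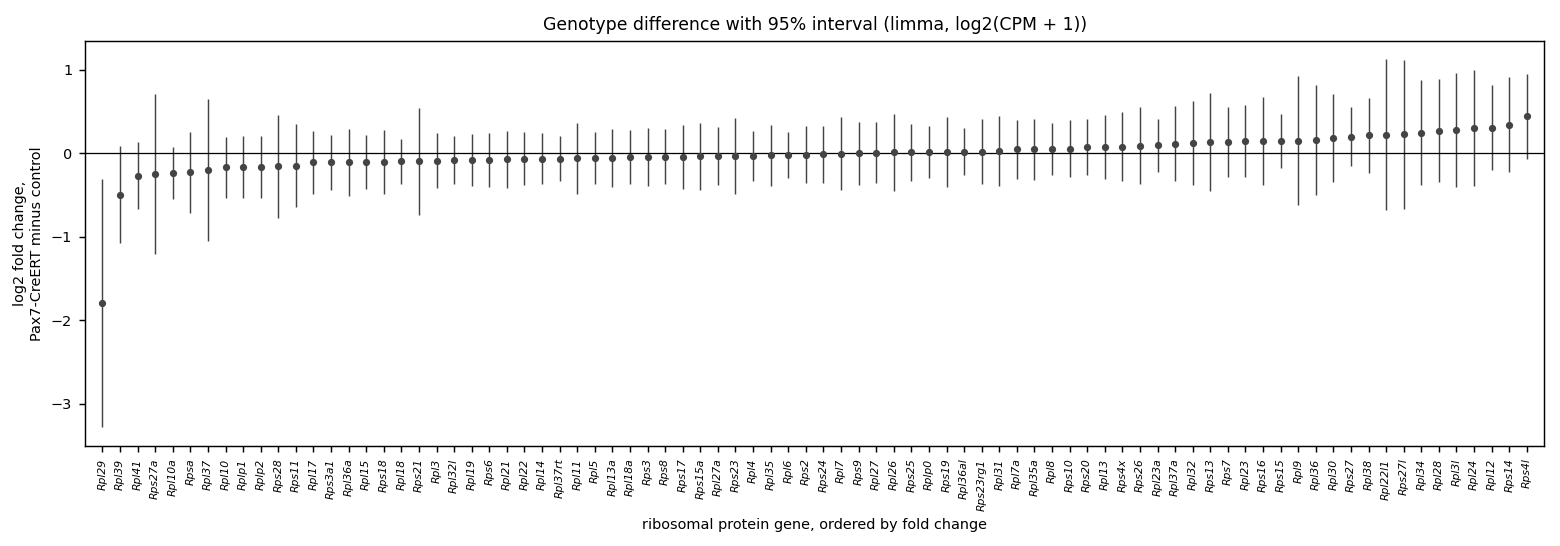
Log2 fold change, Pax7-CreERT minus control, of 82 of the 83 tested ribosomal protein genes with its 95% interval from limma, ordered by value, with a line at 0. Nearly all intervals cross 0, and Rpl29 at -1.80 lies far below the next gene, Rpl39 at -0.50.

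Rpl29, a large subunit gene that mice can live without, differed most. It lies at chr9:106429411-106431568 on the plus strand and measured 13.5, 112.5 and 118.7 CPM in the Pax7-CreERT libraries and 195.4, 270.3 and 154.4 CPM in the controls. Every Pax7-CreERT library was below every control, and replicate 1 was 8.36 to 20.1 times below the other 5 libraries. The log2 fold change of Rpl29 was -1.80 (SE 0.67, 95% interval -3.29 to -0.31, unadjusted p = 0.0226, adjusted p = 0.891), and the exact permutation p was 0.1, the smallest that 3 libraries against 3 can give. Without Pax7-CreERT replicate 1 the log2 fold change was -0.80 (adjusted p = 0.997). Without that library and control replicate 3 it was -0.99 (limma, unadjusted p = 7.3e-05, adjusted p = 0.129). That fit leaves out the lowest Rpl29 value of each group, so its p does not measure the spread between all libraries.

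The value of Rpl29 in Pax7-CreERT replicate 1 rests on an estimated 128 reads, against 583 to 2006 in the other libraries. Among 9427 genes with a mean of at least 10 CPM, Rpl29 was the 1 gene at least 8-fold below all other libraries in any single library; this count was made after its values were seen. Its 6 nearest genes in the table did not show a drop of that size. Dusp7, Abhd14a and Abhd14b were also lowest in Pax7-CreERT replicate 1, and Poc1a, at 0.167 to 1.08 CPM, was too low to show one. Alas1, Poc1a, Dusp7, Acy1, Abhd14a and Abhd14b stood in Pax7-CreERT replicate 1 at 0.61 to 1.61 times the mean of the other 5 libraries. Of the 50-base windows of Rpl29, 66.8% occur in 84 other loci, the part of which in this value was not tested. The part of the fibro-adipogenic and myofibre markers, which were highest in the same library, was not tested either.

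**Figure D5:**
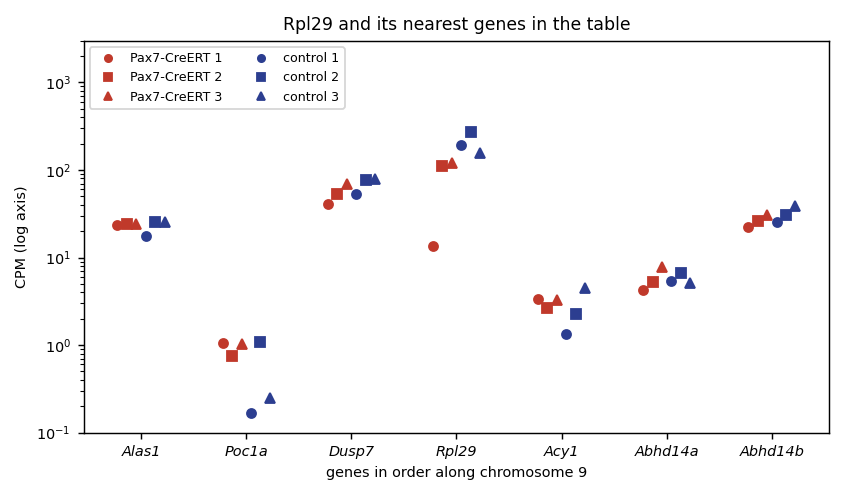
Level in CPM (log axis) of Rpl29 and its 6 nearest genes in the table, in order along chromosome 9, with 1 point per library (red for Pax7-CreERT, blue for control). For Rpl29, Pax7-CreERT replicate 1 lies at 13.5 CPM, well below the other 5 libraries at 112.5 to 270.3 CPM, and for Alas1, Dusp7 and Abhd14b it lies near or within their range.

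Some other large subunit genes were lower and some higher, without passing. They are named here for a small p in either direction or for groups that do not overlap. Of the 51 large subunit members tested, 23 lay above 0. Rpl10a, whose protein forms the mobile L1 stalk, measured 38.5, 35.0 and 40.7 CPM in the Pax7-CreERT libraries and 41.3, 43.9 and 50.8 CPM in the controls, without overlap (log2 fold change -0.24, adjusted p = 0.896). Rpl18 measured 56.3, 53.3 and 57.8 CPM against 63.0, 58.1 and 58.2 CPM, a narrow gap with a log2 fold change of -0.10 (adjusted p = 0.933). Rpl39, whose protein lines the exit tunnel, measured 9.04, 4.79 and 5.50 CPM against 11.03, 9.83 and 7.15 CPM, and its groups overlap through Pax7-CreERT replicate 1. For Rpl39 the log2 fold change was -0.50 (SE 0.26), with an adjusted p of 0.896, and it was -0.90 without Pax7-CreERT replicate 1 and control replicate 3 (adjusted p = 0.765). For Rpl41 the log2 fold change was -0.27 (SE 0.18), with control replicate 3 the highest of the 6 libraries, and it was -0.11 without that library and -0.43 without control replicate 2. Rpl12, at the base of the stalk, measured 4.84, 3.52 and 5.29 CPM against 3.68, 3.50 and 3.21 CPM (log2 fold change 0.30). Rpl38, which is known for a part in the translation of Hox mRNAs, measured 6.94, 5.84 and 7.73 CPM against 5.68, 5.39 and 6.17 CPM (0.21). In both genes 1 Pax7-CreERT library, replicate 2, lies within the range of the controls.

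The acidic stalk recruits the translation factors. Rplp0, its base, measured 456.2, 377.7 and 399.9 CPM in the Pax7-CreERT libraries and 426.4, 377.9 and 416.4 CPM in the controls (log2 fold change 0.01, and -0.08 with TMM factors). Rplp1 measured 383.3, 295.2 and 402.6 CPM against 393.2, 352.3 and 467.7 CPM (-0.17), and Rplp2 measured 14.1, 12.3 and 11.8 CPM against 15.2, 14.4 and 13.6 CPM (-0.17). The groups of all 3 genes overlap, and none passed the test. The Rplp1 value was -0.03 without Pax7-CreERT replicate 2 and -0.06 without control replicate 3. Rplp1 and Rplp2 proteins work as a pair, but per kb their genes stood at 766 and 14.1 CPM. The row Rplp2-ps1 had a mean of 485.0 CPM.

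Among small subunit genes, Rps14, a gene of the platform known from the 5q- syndrome, measured 10.8, 7.04 and 9.16 CPM in the Pax7-CreERT libraries and 9.53, 6.60 and 4.93 CPM in the controls (log2 fold change 0.34). Rps27, which encodes a zinc finger protein, measured 24.2, 26.4 and 26.7 CPM against 25.1, 23.7 and 18.7 CPM (0.19). In both genes the groups overlap, with control replicate 1 inside the Pax7-CreERT range. The adjusted p was 0.899 for each. Without control replicate 3 the log2 fold changes were 0.14 for Rps14 and 0.07 for Rps27, without Pax7-CreERT replicate 1 as well they were 0.01 and 0.12, and without control replicate 1 Rps14 stood at 0.56.

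Paralogues were compared with their partners as a log2 ratio within each library, (paralogue + 1)/(partner + 1) in CPM, for 5 pairs. Rpl3l, the form of striated muscle, measured 0.946, 1.57 and 1.42 CPM in the Pax7-CreERT libraries and 0.501, 1.62 and 0.740 CPM in the controls. Rpl3, part of the peptidyl transferase centre, measured 136.5, 115.7 and 129.2 CPM against 162.3, 116.9 and 129.8 CPM. The ratio differed by 0.37 (exact permutation p = 0.5, adjusted 1). The 20 myofibre markers summed to 2513 to 3608 CPM in the Pax7-CreERT libraries and 1247 to 2061 CPM in the controls, and their part in the Rpl3l level was not tested.

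Rpl22l1, the paralogue of the RNA-binding protein gene Rpl22, measured 5.57, 2.02 and 3.66 CPM in the Pax7-CreERT libraries and 5.18, 3.23 and 1.23 CPM in the controls. Rpl22 measured 153.4, 143.0 and 159.2 CPM against 190.4, 147.9 and 143.3 CPM, and the ratio differed by 0.29 (exact permutation p = 0.6). Rps27l, a p53-responsive paralogue of Rps27, measured 7.99, 6.14 and 8.75 CPM against 10.4, 8.89 and 2.47 CPM, and its ratio to Rps27 differed by 0.03 (exact permutation p = 1). In Rpl22l1 and Rps27l control replicate 3 was the lowest library, and without it the differences of the ratios were -0.03 and -0.38.

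Rpl36al, a paralogue of Rpl36a, measured 56.3, 64.8 and 60.4 CPM in the Pax7-CreERT libraries and 62.0, 55.4 and 62.2 CPM in the controls. Rpl36a on chromosome X measured 21.8, 16.8 and 25.8 CPM against 21.2, 24.7 and 22.9 CPM, and the ratio differed by 0.13 (exact permutation p = 0.8). Rps4l measured 26.0, 37.4 and 33.2 CPM against 31.8, 22.9 and 17.0 CPM, with a log2 fold change of 0.44 (SE 0.23, unadjusted p = 0.0812, adjusted p = 0.896), and it moved to 0.23 when control replicate 3 was left out and to 0.66 when control replicate 1 was. Rps4x, its partner on chromosome X, measured 69.4, 48.9 and 61.3 CPM against 69.2, 55.6 and 45.9 CPM, and the ratio differed by 0.36 (exact permutation p = 0.4). The adjusted p was 1 for each of the 5 pairs. Since 3 libraries against 3 cannot give less than 0.1, this test could not have called any ratio, and the differences are given as values. The ratios of Rpl32l to Rpl32, Rpl37rt to Rpl37 and Rps23rg1 to Rps23, added after their values were seen and not tested, differed by -0.21, 0.13 and 0.05.

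Most members varied little between libraries, as did most genes of a like level. Among members with a mean of at least 10 CPM, the highest library was less than 2 times the lowest for 62 of 65 (95.4%), against 87.0% of 9427 genes. The median ratio of highest to lowest was 1.41 for these members and 1.47 for those genes. Relative to the family's median in each library, the steadiest members were Rpl8, a gene of the peptidyl transferase region (SD 0.04 on the log2 scale over 6 libraries), Rps20 of the 40S head (0.06) and Rps25 (0.06), which viral internal entry sites depend on. Rpl8 measured 160.3, 138.5 and 169.5 CPM in the Pax7-CreERT libraries and 170.2, 149.4 and 133.2 CPM in the controls. Rps20 measured 78.2, 65.7 and 85.3 CPM against 81.2, 74.4 and 62.9 CPM, and Rps25 measured 42.9, 38.5 and 41.3 CPM against 47.3, 41.9 and 33.8 CPM. All 3 were lowest in control replicate 3, the library where the family's median was also lowest.

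The most variable members were Rpl29 (SD 1.51), Rps27a (0.56) and Rpl37 (0.52). Rps27a measured 2.52, 2.02 and 1.22 CPM in the Pax7-CreERT libraries and 5.18, 2.69 and 0.740 CPM in the controls, a 7.002-fold range. The lowest of these values, in control replicate 3, rests on few of that library's estimated 4053000 reads. The log2 fold change of Rps27a was -0.25, and that of Rpl37 was -0.20. Both were lowest in control replicate 3. Without that library the values were -0.74 (unadjusted p = 0.0468, adjusted p = 0.759) and -0.64 (unadjusted p = 0.0436, adjusted p = 0.754), and without control replicate 1 they were 0.18 and 0.05.

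Single libraries set the order of many members. Control replicate 1 was the highest library for 34 of the 85 members, and control replicate 3 the lowest for 33 and Pax7-CreERT replicate 2 for 27. In control replicate 3 the shift went with the level. Compared with the mean of the other libraries, its members under 10 CPM had a median log2 difference of -0.49, with 18 of 20 below, those at 10 to 100 CPM -0.22, and those over 100 CPM 0.03. In Pax7-CreERT replicate 2 all 19 members over 100 CPM were below the mean of the other libraries, with a median of -0.22. The class of a member here is set by its mean in the other 5 libraries, so its size can differ from that given above. Control replicate 3 was also the shallowest library and the one richest in erythroid markers, whose 13 genes in the table summed to 125450 CPM there and to 16831 to 47158 CPM elsewhere, and their part in this shift was not tested.

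Other genes of the translation machinery were taken from lists of known function. Fau, which encodes a ribosomal protein fused to a ubiquitin-like protein, and Rack1, a scaffold on the 40S, are ribosomal proteins with other names. Neither passed, with log2 fold changes of -0.13 and -0.06. Fau measured 536.7, 489.8 and 551.4 CPM in the Pax7-CreERT libraries and 561.3, 568.0 and 596.5 CPM in the controls, without overlap (adjusted p = 0.916).

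Elongation factors (8 tested) had a median log2 fold change of -0.02, and 0 passed. Eef1a2, the form of muscle and neurons, measured 27.1, 14.8 and 17.3 CPM in the Pax7-CreERT libraries and 11.9, 14.4 and 9.13 CPM in the controls (log2 fold change 0.67, unadjusted p = 0.0214, adjusted p = 0.891), beside the higher myofibre markers given above. Eif5a2, a paralogue of the elongation factor Eif5a, had -0.22. Of 40 initiation factors and poly(A) binding proteins 0 passed, with a median of 0.04. Eif2s2, a subunit of the factor that brings the initiator tRNA, measured 61.7, 69.6 and 60.0 CPM against 53.8, 53.9 and 42.2 CPM (0.35, unadjusted p = 0.0351). Pabpc1, itself a TOP mRNA, measured 183.7, 114.0 and 180.1 CPM against 185.7, 194.5 and 335.0 CPM (-0.56, unadjusted p = 0.0512), with control replicate 3 far above the rest (-0.29 without it). The adjusted p was 0.891 for Eif2s2 and 0.896 for Pabpc1.

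The other TOP and snoRNA host transcripts (12 tested, 0 passed) had a median of -0.004, with -0.30 for Snhg5 and -0.21 for Snhg8, which host snoRNAs. Ribosome assembly factors (76 tested) also had 0 that passed; their median was 0.09, equal to that of all genes, and 61 lay above 0 (80.3%, against 68.0% of all genes). With TMM factors 40 of the 76 (52.6%) lay above 0, against 50.7%. Emg1, a methyltransferase of 18S rRNA, measured 26.3, 23.8 and 27.5 CPM in the Pax7-CreERT libraries and 16.5, 19.1 and 17.3 CPM in the controls. Every Pax7-CreERT library was above every control (log2 fold change 0.52, unadjusted p = 0.00575, adjusted p = 0.891). Tsr1, a factor of 40S maturation, measured 14.2, 13.8 and 15.1 CPM against 8.69, 11.9 and 9.94 CPM, also without overlap (0.47, adjusted p = 0.891).

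Subunits and factors of RNA polymerase I (20 tested), which makes the large rRNAs, had a median of 0.07, and genes of mTORC1, MYC and the S6 kinases (24 tested) had 0.11. None of either list passed. Among them Polr1d stood at 0.24, Polr2f at -0.36, the MYC partner Max at -0.29, and Tsc2, which restrains mTORC1, at 0.23. Mitochondrial ribosomal protein genes, which serve a separate ribosome, numbered 77 tested with 0 that passed and a median of 0.09. In that list Mrps9 measured 8.83, 9.73 and 11.4 CPM in the Pax7-CreERT libraries and 7.19, 6.74 and 5.18 CPM in the controls (0.58, adjusted p = 0.891), and Mrpl17 measured 36.8, 38.8 and 39.1 CPM against 28.1, 34.1 and 21.5 CPM (0.46, adjusted p = 0.891). At an unadjusted p under 0.05 there were 4 mitochondrial members higher and 0 lower, and 3 assembly factors higher and 0 lower, where 4.58% of all genes were higher and 0.942% lower. These counts are near the background.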

How the data were processed

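The authors deposited 1 table of CPM for 6 libraries, made from total RNA with the SureSelect strand-specific kit per the labels' protocols. Each library sums to 1000000, and 0.0001 had been added to every value. The submitters' processing notes name Partek, DESeq2 and mm10 and give none of them a role. The aligner, the annotation, the use of strand and the handling of reads that match several loci are not given in the sources used here, and any of these can move the level of genes with copies. Depth was estimated from the steps between low values. Among values no larger than 20 reads, 92.9% to 94.0% lay within 0.05 of a whole read; 95% was required to treat them as counts, so no count test was run. Counting errors cover the sampling of reads only, with an SD of 8.65% to 15.7% per library at 10 CPM.

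Groups came from the genotype label. Genes at 1 CPM or more in 3 or more of the 6 libraries (14763) were fitted with limma 3.58.1 (R 4.3.3) and a mean-variance trend on log2(CPM + 1), a constant that shrinks the fold changes of low genes. Adjustment was by Benjamini-Hochberg over all of them, with a threshold of 0.05, and single values had exact 2-sided permutation tests. The fit was tested on simulated data. The members and the lists were chosen with earlier results of these data known. Genes named with values were the paralogues and their partners, the stalk genes, the 5 smallest p-values in each direction, the 5 highest and 5 lowest levels per kb, the 3 steadiest and 3 most variable members, those next to the filter, and 2 genes with the smallest p of each other list. Some genes that this rule names are not reported here or drawn, though all counts include them. Rpl18, the copies and the neighbours of Rpl29 were added after their values were seen. Paralogue pairs with Rpl10l and Rpl39l were not analysed here.

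Symbols of all 85 members matched RefSeq (GRCm38.p6), where 70 starts were equal and 80 ends lay 1 past, so 1 was subtracted from each end. One GENCODE M21 transcript per gene gave lengths and shared windows. Alternatives were a pseudocount of 0.1, no filter, TMM and quantile scaling, totals without haemoglobin genes or of the members, array weights, and libraries left out.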

Additional observations from a re-analysis of the deposited data

How the results depend on the processing

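The count of members that pass was 0 with limma in all 14 alternatives, and at an unadjusted p under 0.05 there were 1 to 4. The members' median log2 fold change lay between -0.11 and 0.08. The difference in summed share was -0.0861 percentage points with TMM factors and -0.0615 to -0.0168 with 1 library left out. The Rplp0 log2 fold change turned its sign with TMM factors (-0.0802), quantile scaling (-0.0154) and totals without haemoglobin genes (-0.0406), and that of Rpl18 when scaled to the members' total (0.000699). Leaving out Pax7-CreERT replicate 1 together with control replicate 3, the libraries that earlier work found apart, gave -0.0465 for Rplp0 and differences of -0.294 and -0.462 in the ratios of Rpl22l1 to Rpl22 and Rps27l to Rps27. With 1 library left out, log2 fold changes ran from -0.0641 to 0.0717 for Rplp0, -0.639 to 0.0583 for Rpl37 and -0.736 to 0.179 for Rps27a. The differences in log2 ratio ran from -0.0324 to 0.540 for Rpl22l1 to Rpl22, -0.0823 to 0.264 for Rpl36al to Rpl36a and -0.383 to 0.273 for Rps27l to Rps27. The Spearman correlation was 0.0188 and -0.0377 with windows of 75 and 100 bases, added after seeing the data. The signs turned without Pax7-CreERT replicate 1 (Rplp0, Rps27l), Pax7-CreERT replicate 2 (Rpl36al), Pax7-CreERT replicate 3 (Rpl37, Rps27l), control replicate 1 (Rpl37, Rps27a), control replicate 2 (Rplp0) or control replicate 3 (Rpl22l1, Rps27l). The cause of these turns was not tested. No paired analysis was possible because the replicate numbers only count the records of a group. Members near 1 CPM rest on few reads, so differences in them were not detectable at this depth.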
